A study of Mus musculus with 8 samples.

Results

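Wnt ligands, their receptors and the genes that carry or limit their signal were examined in mouse myofibroblastic hepatic stellate cells treated with an inhibitor of O-GlcNAc transferase. The 48 genes were taken by symbol, out of 40840 genes listed: 19 Wnt ligands, 10 Frizzled receptors and 19 further genes named one by one. RNA-seq libraries came from primary myofibroblastic hepatic stellate cells (pMF-HSCs) of wild-type male C57BL/6J mice of 15 to 18 weeks. Hepatic stellate cells are vitamin A-storing cells of the liver that turn into collagen-secreting myofibroblasts when grown on plastic, and these had been sorted from liver and cultured for 7 days. Control cultures received the vehicle DMSO for 24 h (n = 4) and OGTi cultures received 50 µM OSMI-1, also for 24 h (n = 4). The study's text describes its controls as non-treated. OSMI-1 blocks O-GlcNAc transferase (OGT), which attaches the sugar O-GlcNAc to nuclear and cytoplasmic proteins. Both groups share the genotype, the culture and the spontaneous activation on plastic, and the study counts the 4 replicates as independent experiments, each holding 1 Control and 1 OGTi culture. As a model, these are cells in a dish without the other cells of the liver, and 1 dose and 1 time were sampled.

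Wnt proteins are secreted, lipid-modified ligands. In the canonical branch a Wnt binds a Frizzled receptor together with Lrp5 or Lrp6, the destruction complex built on Axin and Apc stops degrading beta-catenin, and beta-catenin joins TCF/LEF factors on target genes. In the branches that do not use beta-catenin, ligands such as Wnt5a act through Ror or Ryk receptors on cell polarity and calcium. R-spondins raise the number of Frizzled receptors at the cell surface by removing the ligases Znrf3 and Rnf43. In the liver, Wnt ligands and R-spondin 3 are best known as signals that pattern the lobule around the central vein, and stellate cells are one of their sources.

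Of the 48 genes, 36 had at least 10 counts in total over the 8 libraries and were tested. OGTi lowered 9 of them and raised 0, while 27 were not called (edgeR quasi-likelihood test blocked on the replicate, called at a p of at most 0.05 after Benjamini-Hochberg adjustment over all genes). The 9 were the ligands Wnt5a, Wnt5b and Wnt2, the receptors Fzd6, Fzd2, Fzd7 and Ror1, the R-spondin Rspo3 and the transcription factor Tcf7l2. They made up 25% of the members tested, where 18.4% of all 19963 genes tested were called in either direction, 10.2% as lower and 8.13% as higher. Leaving out replicate 2 or replicate 4 left 5 members lower, where 8.53% and 5.67% of all genes were called lower. On the 2 TPM scales, 9 and 11 members were lower, where 17.3% and 17.4% of all genes were. At an unadjusted p of at most 0.05, 12 members were lower and 1, Axin1, was higher, where 17.5% and 14.3% of all genes were. At an adjusted p of at most 0.01, 5 members were lower, where 4.59% of all genes were. DESeq2 called Axin1 higher. The median log2 fold change was -0.53 over the members tested and 0.01 over all genes tested, with 25 members fitted below 0 and 11 above. In 16 members (44.4%) OGTi was lower in all 4 pairs, against 21.5% of all genes, and in 2 it was higher in all 4 pairs, against 19.4%. In 10 members (27.8%) every OGTi library was below every Control library, against 12% of all genes, and in 2 members, Wnt3 and Axin1, every OGTi library was above, against 11.5%. In RNA from a whole culture, fewer cells of a type and less RNA per cell cannot be told apart, and this holds for every level below.

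**Figure D1:**
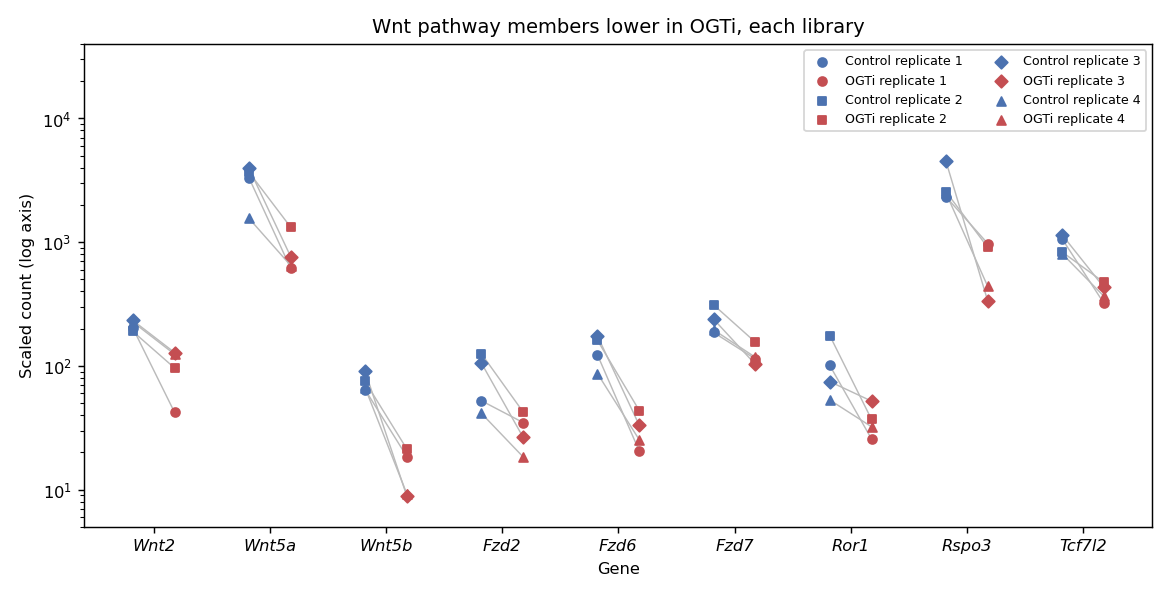
Scaled counts (counts corrected for library size, log axis) of the 9 members lower in OGTi, with 1 point per library and a line joining the Control and OGTi culture of each replicate. Every line falls, and the groups overlap for Fzd2 only, where OGTi replicate 2 (42.4) lies above Control replicate 4 (41.4).

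The libraries held 30068876 to 37372420 expected counts, and 19035 to 20293 genes were detected in 7 of them and 23746 in OGTi replicate 4. The labelled cell type was checked against its markers: 10 myofibroblastic stellate cell genes summed to 5137 to 8821 TPM in Control and 4741 to 9818 TPM in OGTi. TPM is a transcript abundance scaled by length and depth. Of 11 endothelial markers, 9 (Pecam1, Cdh5, Kdr and Stab2 among them) stayed under 1 TPM in every library, and the list summed to 13.1 to 46.0 TPM in Control and 24.8 to 32.9 TPM in OGTi. The same sums were 49.9 to 187.1 and 90.2 to 234.6 TPM for 11 macrophage and leukocyte markers, of which 5, Ptprc and Adgre1 included, stayed under 1 TPM. They were 3.42 to 3.98 and 3.05 to 8.05 TPM for 10 hepatocyte markers (8 under 1 TPM, Alb included), 306.6 to 654.5 and 128.4 to 563.2 TPM for 7 cholangiocyte markers (3 under 1 TPM, Epcam included), and 1.76 to 2.74 and 1.19 to 2.46 TPM for 8 mesothelial and portal fibroblast markers (6 under 1 TPM). These ranges overlapped between the groups for each list. Single markers were also called. Among them, the stellate cell genes Pdgfrb, Lrat and Hgf, the endothelial genes Tek and Lyve1 and the cholangiocyte gene Krt19 were lower and Cd68, Cyp2e1 and Sox9 higher in OGTi. Their part in the results below was not tested.

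The promoters of Wnt5b are shown because it had the largest fall of the 9 and because its 3 annotated start sites each held a different motif. Each is the 300 bases from 250 before to 50 after a RefSeq start site (table build GRCm38.p6), located by an exact match to GRCm39, all on the minus strand and all within the gene. Capitals mark a motif: the AP-1 motif TGANTCA at position -191 (the start site being 0) in the first (chr6:119521259-119521558), the TEAD motif GGAATG on the opposite strand at position 13 in the next (chr6:119444123-119444422), and the TCF/LEF motif CTTTGAT at position -71 in the last (chr6:119426298-119426597).
Wnt5b start 1: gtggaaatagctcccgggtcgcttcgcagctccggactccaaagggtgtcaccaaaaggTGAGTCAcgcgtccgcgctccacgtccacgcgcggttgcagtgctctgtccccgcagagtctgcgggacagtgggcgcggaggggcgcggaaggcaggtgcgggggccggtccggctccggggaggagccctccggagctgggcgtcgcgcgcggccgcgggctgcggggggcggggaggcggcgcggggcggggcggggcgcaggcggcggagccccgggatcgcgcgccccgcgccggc
Wnt5b start 2: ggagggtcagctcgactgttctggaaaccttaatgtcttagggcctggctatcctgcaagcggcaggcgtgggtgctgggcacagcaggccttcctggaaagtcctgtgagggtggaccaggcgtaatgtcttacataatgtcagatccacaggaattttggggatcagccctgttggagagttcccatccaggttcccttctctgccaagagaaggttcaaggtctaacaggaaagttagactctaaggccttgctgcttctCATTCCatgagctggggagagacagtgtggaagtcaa
Wnt5b start 3: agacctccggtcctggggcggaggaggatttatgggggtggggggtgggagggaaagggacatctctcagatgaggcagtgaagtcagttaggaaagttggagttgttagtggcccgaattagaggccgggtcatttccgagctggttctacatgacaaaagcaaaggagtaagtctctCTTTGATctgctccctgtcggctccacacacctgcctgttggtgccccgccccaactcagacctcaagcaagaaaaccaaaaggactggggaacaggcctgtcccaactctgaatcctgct

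Both strands were searched, and no motif overlapped another. Of all 32851 promoters in the table, 7.81% held the AP-1 motif, 14.7% the TEAD motif and 3.73% the TCF/LEF motif. The table gave 41 promoters for 32 of the 48 members, of which 2 held AP-1 (Wnt5b, Ror2), 1 held TEAD (Wnt5b) and 2 held TCF/LEF (Wnt5b, Wnt11). Among the 9 members lowered, 5 were matched (Wnt2, Wnt5b, Fzd7, Ror1 and Tcf7l2), with 8 promoters, and outside Wnt5b none of these held any of the 3 motifs as spelled. A match describes the letters only. The first Wnt5b promoter was 78% G and C with 47 CpG, whereas the next and last were 53% and 55% with 4 and 7 CpG. The counts used here are per gene and do not say which start was in use.

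Among the 19 Wnt ligands, 11 were tested, 3 fell and 0 rose. Wnt5a, the main ligand of the branches that do not use beta-catenin, had the highest level of the ligands, with a mean of 28.5 TPM in Control and 6.29 TPM in OGTi. Its scaled counts were 3316, 3674, 3955 and 1557 in Control replicates 1 to 4 and 612, 1319, 761 and 647 in OGTi replicates 1 to 4. Control replicate 4 was the lowest Control and still lay above every OGTi library, and OGTi replicate 2 was the highest of its group. Wnt5a (chromosome 14, 28226495 to 28249405, GRCm39) was thus 3.71-fold lower, a log2 change of -1.89 ± 0.27 (SE, edgeR adjusted p 0.00142), lower in 4 of 4 pairs.

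Wnt5b (chromosome 6, 119409323 to 119521897), the close relative of Wnt5a, was far less abundant per length, at a mean of 1.82 TPM in Control and 0.28 TPM in OGTi. In Control it had 64.2, 74.7, 90.2 and 66.5 scaled counts and in OGTi 18.4, 21.2, 8.83 and 9.19. The Control libraries lay close together, and OGTi replicates 3 and 4 held less than OGTi replicates 1 and 2. OGTi was 5.28-fold lower, at a log2 change of -2.40 ± 0.43 (SE, edgeR adjusted p 0.00424).

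Wnt2 (chromosome 6, 17985468 to 18031892), a ligand of the canonical branch that liver endothelium also makes, had scaled counts of 203, 189.9, 233 and 226 in Control and 42.0, 96.0, 128 and 124 in OGTi. The groups did not overlap, and OGTi replicate 1 was the lowest. OGTi was 2.34-fold lower, at a log2 change of -1.22 ± 0.31 (SE, edgeR adjusted p 0.0229). This call was lost when any single replicate was left out, at edgeR adjusted p of 0.0512, 0.0551, 0.0589 and 0.0615 without replicates 1 to 4, while the log2 fold change stayed between -1.35 and -0.90. Of 11 endothelial markers, 9 were under 1 TPM in all libraries, and 2 fell in OGTi: Tek, from 51.1 to 148 scaled counts in Control to 3.45 to 26.5 in OGTi (edgeR adjusted p 0.00235), and Lyve1, from 10.1 to 33.4 to 0 to 8.93 (adjusted p 0.034). Egfl7, the most abundant of them at 11.3 to 42.9 TPM in Control and 23.6 to 31.4 TPM in OGTi, was not called (adjusted p 0.734). Their part in the Wnt2 result was not tested.

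The other ligands of at least 1 TPM in either group were Wnt9a, Wnt11 and Wnt4, and none of them was called. Wnt9a had scaled counts of 399.9, 729.9, 324 and 82.9 in Control and 128, 720.3, 463 and 529.5 in OGTi. The groups overlapped almost entirely, with the lowest value in Control replicate 4 and the highest in Control replicate 2 (log2 fold change 0.34 ± 0.56, adjusted p 0.732). The sign of Wnt9a turned to -0.34 without replicate 4. Wnt11, a ligand of the polarity branch, had 25.7, 12.3, 77.3 and 28.9 in Control and 15.4, 29.0, 142 and 252 in OGTi. It was highest in OGTi replicates 3 and 4 and lower in OGTi than Control in replicate 1 (log2 fold change 1.17 ± 0.56, adjusted p 0.181). Wnt4 ranged over 38.5 to 181 scaled counts in Control and 28.7 to 74.7 in OGTi (adjusted p 0.333).

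The 5 remaining ligands that were tested stayed under 1 TPM in mean. Of these, Wnt3 had 0, 0, 1 and 0 counts in Control and 7, 2, 1 and 4 in OGTi, so that its scaled values did not overlap but rested on few reads (adjusted p 0.195). Wnt1, Wnt2b, Wnt7a and Wnt10b had adjusted p of 0.849, 0.864, 0.971 and 0.743. Wnt3a, Wnt6, Wnt7b, Wnt8a, Wnt8b, Wnt9b, Wnt10a and Wnt16 were not tested. Over all 12 members not tested, totals over the 8 libraries were 0 to 9 counts and no library exceeded 0.08 TPM, and 3 of them (Wnt8a, Wnt16 and Rspo1) had no count.

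The make-up of the ligand pool is given here as a description, with no test. Summed over the 19 ligands, Wnt mRNA was 44.6, 53.1, 55.9 and 26.3 TPM in Control and 7.41, 25.9, 17.5 and 20.9 TPM in OGTi. In TPM, which does not carry the scaling used for the scaled counts, every OGTi sum was below every Control sum. The gap was narrow for OGTi replicate 2 against Control replicate 4, and the separation was not checked on scaled counts. Wnt5a supplied 62.3% ± 5.55 (SD, n = 4) of this sum in Control and 37.1% ± 12.4 in OGTi. Wnt9a supplied 12.3% ± 6.95 and 30.8% ± 9.01, and Wnt11 1.99% ± 1.27 and 11.1% ± 9.98. Wnt2 supplied 15.0% ± 6.59 and 12.7% ± 2.97. The shares of one library sum to a whole, so that the fall of one ligand lifts the others.

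**Figure D2:**
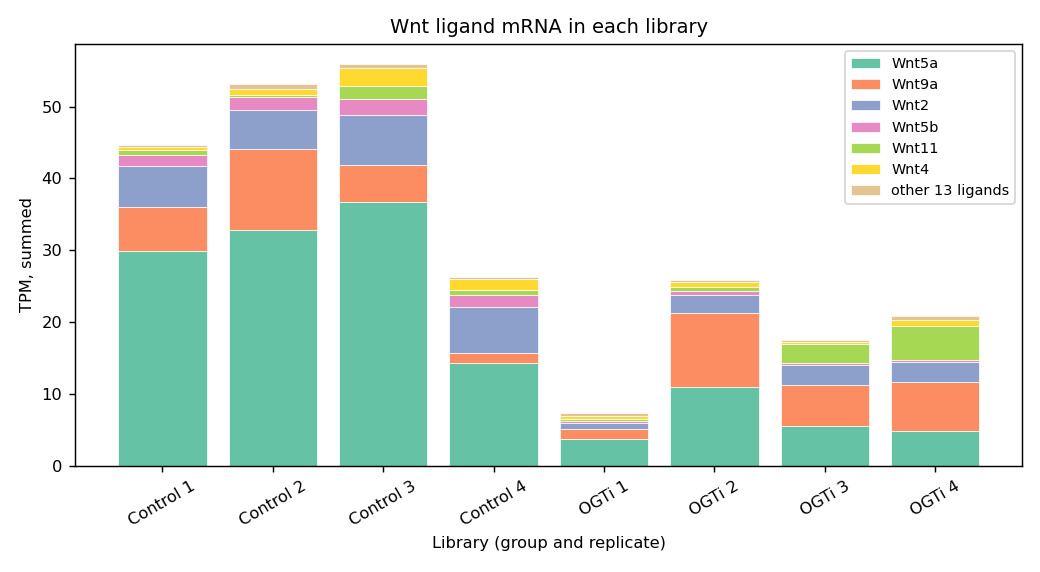
Summed TPM of the 19 Wnt ligands in each library, with the 6 ligands of at least 1 TPM in either group drawn apart and the other 13 together. Wnt5a is the largest segment in all Control libraries and in OGTi replicates 1 and 2, and in OGTi replicates 3 and 4 Wnt9a is the larger.

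The machinery that ligands need to leave the cell was not called. Wls, the carrier that brings lipid-modified Wnt to the cell surface, was the most abundant member at 246 TPM in Control and 174 TPM in OGTi. Scaled counts were 15639, 19323, 20731 and 18252 in Control, compared with 12541, 18790.0, 17455 and 15453 in OGTi. OGTi was lower in 4 of 4 pairs, yet the groups overlapped, with a log2 change of -0.21 ± 0.17 (SE, edgeR adjusted p 0.45). Porcn, the acyltransferase that adds the lipid, ranged over 39.5 to 76.5 scaled counts in Control and 38.6 to 89.1 in OGTi (log2 fold change 0.04 ± 0.36, adjusted p 0.959).

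Among the 10 Frizzled receptors, 9 were tested, 3 fell and 0 rose. Fzd6, a receptor linked to planar cell polarity (chromosome 15, 38869243 to 38901584), fell the most. Its scaled counts were 123, 161, 175 and 86.7 in Control and 20.5, 43.6, 33.1 and 25.3 in OGTi. The groups did not overlap, and Control replicate 4 was the lowest Control. OGTi was 4.46-fold lower, at a log2 change of -2.16 ± 0.32 (SE, edgeR adjusted p 0.0018).

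Fzd7 (chromosome 1, 59521269 to 59534685), a receptor of the canonical branch, had scaled counts of 186, 311, 238 and 196 in Control and 114, 155, 103 and 117 in OGTi. The groups did not overlap, although OGTi replicate 2 came near Control replicate 1 (log2 fold change -0.92 ± 0.25, 1.89-fold lower, edgeR adjusted p 0.0297). Fzd2 (chromosome 11, 102495222 to 102498884), which binds Wnt5a as well as canonical ligands, had 52.3, 126, 106 and 41.4 in Control and 34.8, 42.4, 26.5 and 18.4 in OGTi. Control replicates 1 and 4 were near the OGTi values, and OGTi replicate 2 lay above Control replicate 4 (log2 fold change -1.33 ± 0.37, 2.52-fold lower, edgeR adjusted p 0.0314). Both calls were lost without replicates 2, 3 or 4, at edgeR adjusted p of 0.0868, 0.166 and 0.0759 for Fzd7 and 0.113, 0.167 and 0.0784 for Fzd2, and both were also lost under upper-quartile scaling (0.0607 and 0.0501) and with the trend on transcript length removed (0.133 and 0.0852). Fzd2 also lost its call without the replicate block (0.0575).

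Fzd4, a receptor for canonical ligands and for norrin, was the most abundant Frizzled at 5.49 TPM in Control and 3.42 TPM in OGTi. In Control it had 475, 813, 707 and 198 scaled counts and in OGTi 284, 635, 461 and 178. Replicate 4 was lowest and replicate 2 highest in both groups, OGTi was lower in 4 of 4 pairs and the groups overlapped (log2 fold change -0.47 ± 0.23, edgeR adjusted p 0.182). Fzd1 ranged over 189.8 to 314 scaled counts in Control and 113 to 229 in OGTi and was likewise lower in 4 of 4 pairs (log2 fold change -0.59 ± 0.24, adjusted p 0.129). The remaining receptors tested stayed under 1 TPM in mean: Fzd3 and Fzd5 were fitted above 0 (log2 fold changes 0.49 ± 0.28 and 0.40 ± 0.28, adjusted p 0.27 and 0.357) and Fzd8 and Fzd9 below it (adjusted p 0.961 and 0.525). Fzd10 was not tested. As a share of summed Frizzled TPM, with no test, Fzd6 went from 12.7% ± 1.42 (SD, n = 4) to 4.09% ± 0.957 and Fzd3 from 4.66% ± 1.48 to 9.20% ± 1.10.

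Of the 5 members that are receptors beside Frizzled, Ror1 was called. Ror1 (chromosome 4, 99952988 to 100301990), a receptor-like kinase that binds Wnt5a, had scaled counts of 101, 176, 74.6 and 53.0 in Control and 25.6, 36.9, 51.9 and 32.2 in OGTi. Control replicate 4 (53.0) and OGTi replicate 3 (51.9) nearly met, and the groups did not overlap. OGTi was 2.58-fold lower, at a log2 change of -1.37 ± 0.40 (SE, edgeR adjusted p 0.0379). The call was lost without replicates 1, 2 or 4 (edgeR adjusted p of 0.126, 0.165 and 0.0628), with the length trend removed (0.0892) and with limma on both TPM scales (0.0558 and 0.055), and its mean TPM was under 1 in both groups. Ror2 was not tested.

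Ryk, a Wnt receptor without kinase activity, was the most abundant of this group, at 8.92 to 16.9 TPM in Control and 8.08 to 11.7 TPM in OGTi. Scaled counts were 767, 1054, 825 and 544 in Control, compared with 1052, 768, 629 and 680.0 in OGTi. The groups overlapped throughout, and the direction varied between pairs (log2 fold change -0.02 ± 0.24, edgeR adjusted p 0.972). Lrp6, the co-receptor of the canonical branch, had 783, 784, 939 and 849 in Control and 575, 1008, 756 and 898 in OGTi. The highest and the lowest value were both OGTi libraries, replicates 2 and 1 (log2 fold change -0.08 ± 0.23, edgeR adjusted p 0.859). The sign of the Ryk and Lrp6 values changed with the scaling. Lrp5 ranged over 24.8 to 77.3 scaled counts in Control and 14.3 to 42.5 in OGTi and was lower in 4 of 4 pairs (log2 fold change -1.06 ± 0.47, adjusted p 0.156).

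Rspo3, the R-spondin that stellate cells and central vein endothelium make in the liver (chromosome 10, 29327285 to 29411876), was second only to Wls among the members in mean TPM, at 67.3 TPM in Control and 11.9 TPM in OGTi. Its scaled counts were 2329, 2561, 4527 and 2500.2 in Control and 975, 908, 334 and 439 in OGTi. Control replicate 3 stood above the other Control libraries, its OGTi partner was the lowest of all 8, and the groups were well apart. OGTi was 4.7-fold lower, at a log2 change of -2.23 ± 0.39 (SE, edgeR adjusted p 0.00401). Without replicate 3 the log2 fold change was -1.75 and the call stood.

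The ligases that R-spondins restrain were not called. Znrf3 had scaled counts of 1034, 535, 831 and 904 in Control and 624, 429, 681 and 364 in OGTi. OGTi was lower in 4 of 4 pairs, and Control replicate 2 fell among the OGTi values (log2 fold change -0.66 ± 0.25, edgeR adjusted p 0.0945). Rnf43 had at most 13.2 scaled counts in any library (adjusted p 0.882), and Rspo1 and Rspo2 were not tested. Summed over these 5 genes, TPM was 59.5 to 110.6 in Control and 10.1 to 21.7 in OGTi, and Rspo3 carried most of it.

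None of the 3 scaffolds of the destruction complex was called. Axin1 had scaled counts of 611, 515, 479.7 and 554 in Control and 928, 786, 693 and 633 in OGTi. Every OGTi library lay above every Control library, but the log2 change of 0.48 ± 0.22 (SE) was not called (edgeR adjusted p 0.152). DESeq2 called it higher (adjusted p 0.0493), as did the fit with the trend on transcript length removed (edgeR adjusted p 0.0377). Apc ranged over 889.9 to 1078 scaled counts in Control and 621 to 1407 in OGTi, where replicate 1 was the lowest of all libraries and the other OGTi libraries were above every Control (log2 fold change 0.19 ± 0.26, adjusted p 0.675). Axin2, a feedback gene widely read as a gauge of beta-catenin signalling, had between 0 and 9 counts per library and allowed no comparison at this depth (adjusted p 0.835).

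Of the 4 TCF/LEF factors, through which beta-catenin reaches DNA, Tcf7l2 fell. Tcf7l2 (chromosome 19, 55730188 to 55922091) was the most abundant of them at 12.0 TPM in Control and 4.03 TPM in OGTi. In Control it had 1064, 834, 1146 and 808 scaled counts and in OGTi 321, 473, 431 and 365. The groups did not overlap, and the highest OGTi value lay well below the lowest Control value. OGTi was 2.42-fold lower, at a log2 change of -1.28 ± 0.24 (SE, edgeR adjusted p 0.00521).

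Tcf7, known for its role in T cells, was lower in every OGTi library than in any Control library, at 56.3 to 74.8 against 77.4 to 130.2 scaled counts, with a log2 change of -0.61 ± 0.32 (SE, edgeR adjusted p 0.216). Lef1 had 3, 3, 5 and 7 counts in Control and 0, 1, 0 and 2 in OGTi. Its groups did not overlap, but these few reads gave an adjusted p of 0.269.

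Tcf7l1, most often a repressor of Wnt targets, behaved differently by count and by TPM. Scaled counts were 471, 399, 521 and 322 in Control, compared with 524, 376, 365 and 299.8 in OGTi, which overlapped (log2 fold change -0.14 ± 0.23, edgeR adjusted p 0.738). Its TPM values were 5.95, 5.06, 7.21 and 4.31 in Control and 2.94, 3.34, 2.18 and 1.98 in OGTi, which did not. The mean transcript length that RSEM assigned to the gene, over 3 RefSeq transcripts, was 4047, 4026, 3832 and 3888 bases in Control and 6158, 5272, 6680.1 and 6274 bases in OGTi. On log2(TPM + 1) with limma, Tcf7l1 was lower in OGTi at -0.88 ± 0.23 (SE, adjusted p 0.0382), and on log2(TPM + 0.1) at -1.09 ± 0.28 (adjusted p 0.0312). TPM does not carry the scaling of the scaled counts. On these scales the median log2 change over all genes was -0.10 and -0.23, against 0.01 by count. How far length or scaling set the difference for Tcf7l1 was not tested.

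The means were 3948 ± 105 and 6096 ± 593 bases (SD, n = 4), 1.54 times apart, as a description with no test, since the gene was singled out after its values were seen. Of 11659 tested genes with a mean of at least 1 TPM, 31 (0.266%) had group lengths that did not overlap with means at least 1.25 times apart, 22 longer and 9 shorter in OGTi. Tcf7l1 was the only one of the 19 members of that level to do so. For Tcf7l2 the mean lengths were 4140.2 ± 18.5 and 4144 ± 7.24 bases.

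**Figure D3:**
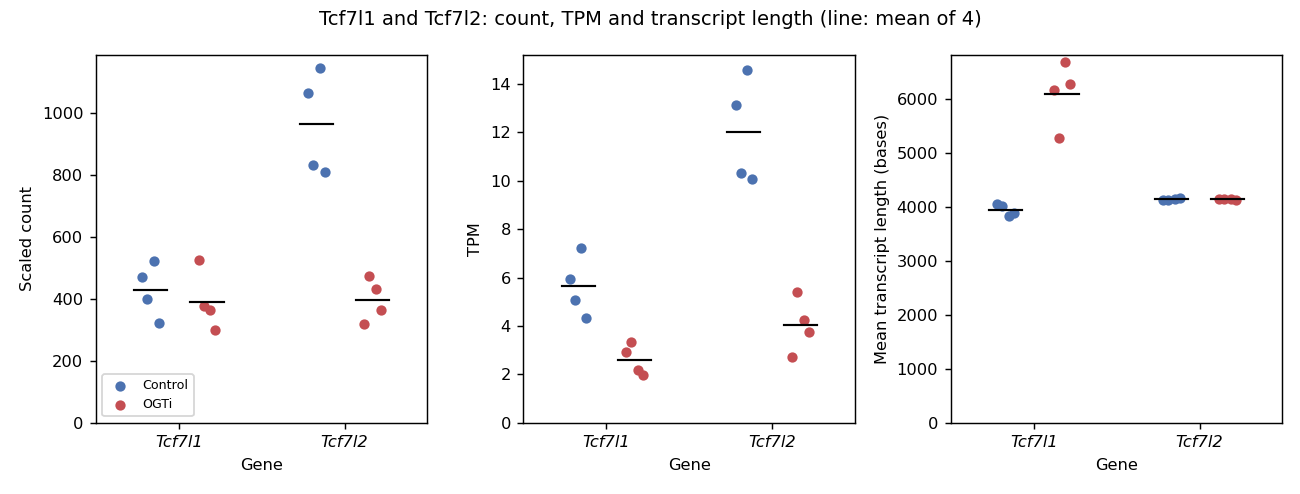
Scaled count, TPM and mean transcript length in bases of Tcf7l1 and Tcf7l2, with 1 point per library and a line at the mean of 4. Tcf7l2 falls by count and by TPM at an even length, whereas for Tcf7l1 the counts overlap, the TPM values do not, and the OGTi lengths (5272 to 6680.1 bases) lie above the Control ones (3832 to 4047 bases).

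Across the roles, the most abundant ligand, R-spondin and TCF/LEF factor (Wnt5a, Rspo3 and Tcf7l2) were among the 9 lowered, while Wls, Fzd4, Ryk, Lrp6 and Axin1, the most abundant of their roles, were not called. The log2 fold changes of the 9 ranged from -2.40 to -0.92, all 9 were lower in 4 of 4 pairs, and 8 did not overlap between groups. Of the 27 members not called, the lowest adjusted p was that of Znrf3. Of the 15 members tested whose mean was under 1 TPM in both groups, 1 was called, Ror1, and large errors such as those of Wnt10b, Axin2 and Lef1 mark values too uncertain to compare.

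**Figure D4:**
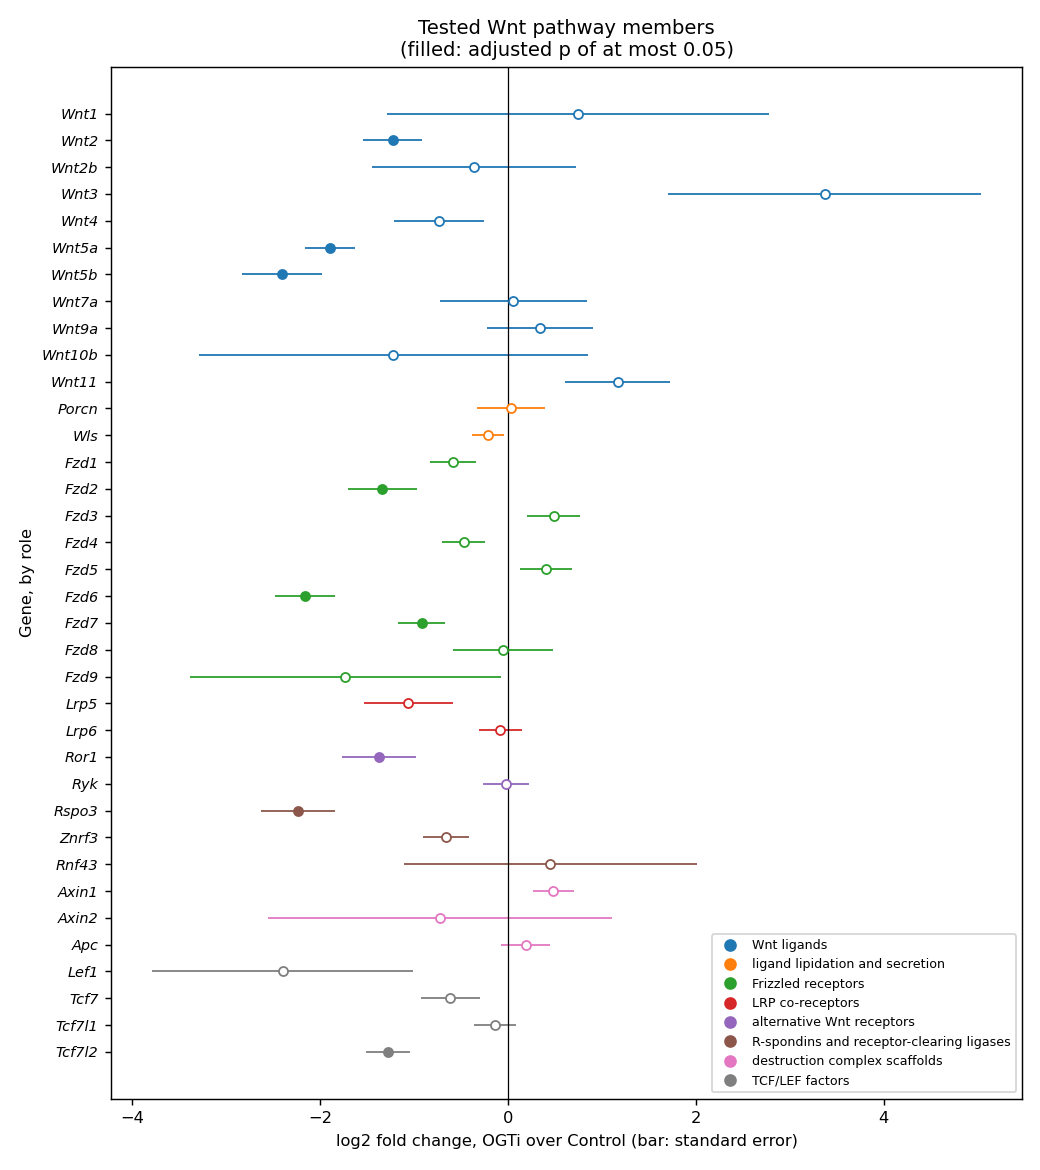
Log2 fold change of OGTi over Control for the 36 members tested, by role, with bars of 1 standard error and filled points at an adjusted p of at most 0.05. The 9 filled points lie between -2.40 and -0.92, and the long bars of Wnt1, Wnt3, Wnt10b, Fzd9, Rnf43, Axin2 and Lef1 belong to genes of few reads.

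Other genes of the pathway were counted from 7 lists, which hold 104 genes that are not among the 48. Of these, 92 were tested, 21 (22.8%) fell and 4 (4.35%) rose, with a median log2 fold change of -0.33. Over all genes tested, 10.2% fell and 8.13% rose, the background against which the counts of each list below stand.

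Among beta-catenin, its kinases, Dishevelled and the ubiquitin adaptors, 18 were tested, 2 fell and 1 rose. Amer1, which recruits Axin and Apc to the membrane, fell from 482 ± 77.0 to 103 ± 58.4 scaled counts (mean and SD, n = 4), at a log2 change of -2.40 ± 0.39 (SE, edgeR adjusted p 0.00276). Apc2, a relative of Apc, was lower, at a log2 change of -2.01 ± 0.60 (adjusted p 0.0429), and Csnk1e, a casein kinase that acts on Dishevelled, was higher, at 0.76 ± 0.20 (adjusted p 0.0265). Neither of these latter calls held when replicates 2, 3 or 4 were left out, at edgeR adjusted p of 0.0577, 0.104 and 0.152 for Apc2 and 0.0589, 0.175 and 0.0593 for Csnk1e. The log2 change of Apc2 was -1.28 without replicate 3, and its call was also lost with edgeR's own filter (0.0643) and with the length trend removed (0.0747), that of Csnk1e with library totals alone (0.0741) and with limma on both TPM scales (0.104 and 0.113).

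Of 14 nuclear partners of TCF/LEF factors, 4 fell and 1 rose. Tbl1xr1, part of the exchange of co-repressors for co-activators, fell from 230.2 ± 47.7 to 60.9 ± 17.1 scaled counts (mean and SD, n = 4), at a log2 change of -1.93 ± 0.30 (SE, edgeR adjusted p 0.00235). Pygo1, a beta-catenin co-activator, had 49, 54, 26 and 29 counts in Control and 3, 0, 0 and 0 in OGTi (adjusted p 0.00256). Bcl9l, which links Pygo to beta-catenin, fell as well, at a log2 change of -1.05 (adjusted p 0.0333). Of the 5 Groucho family genes, 2 were called, the co-repressors Tle3 at -0.97 ± 0.22 (adjusted p 0.0122) and Tle1 at 1.11 ± 0.25 (adjusted p 0.0136). Calls were lost for Tle3 without replicate 3 (0.0952), for Tle1 without replicates 3 or 4 (0.104 and 0.0518) and for Bcl9l without replicates 1, 3 or 4 (edgeR adjusted p of 0.0696, 0.18 and 0.135). Bcl9l also lost it with the length trend removed (0.0748) and Tle1 with limma on both TPM scales (0.103 and 0.105).

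Of 10 secreted antagonists and modulators tested, 4 fell and 0 rose. Frzb, a decoy that binds Wnt ligands, was the most abundant of the 4 by TPM, with a mean of 25804 ± 6474 scaled counts in Control against 9764 ± 984 in OGTi (SD over 4 libraries), at a log2 change of -1.37 ± 0.21 (SE, edgeR adjusted p 0.00228). Dkk2 and Kremen1, which act together on Lrp5 and Lrp6, had log2 fold changes of -5.14 ± 0.44 and -1.17 ± 0.24 (adjusted p 0.00021 and 0.00864). Dkk3 had -1.01 ± 0.21 (edgeR adjusted p 0.00904, and 0.0501 without replicate 3 and 0.102 without the replicate block). Ligands and antagonists of Wnt were thus both among the genes lowered.

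The planar cell polarity list, to which Fzd6 is linked by function, had 13 genes tested, of which 3 fell and 0 rose. Ptk7, a co-receptor, went from 882, 862, 1727 and 752 scaled counts in Control to 85.0, 255, 152 and 211 in OGTi, with Control replicate 3 apart from the other Control libraries (log2 fold change -2.61 ± 0.36, edgeR adjusted p 0.00131). The core polarity genes Vangl2 and Prickle1 had log2 fold changes of -2.54 ± 0.45 and -2.32 ± 0.42 (adjusted p 0.00416 and 0.00454). Of 12 genes of the calcium branch, the transcription factor Nfatc4 was lower, at a log2 change of -2.39 ± 0.44 (adjusted p 0.00472) and the calcineurin subunit Ppp3ca higher, at 0.79 ± 0.21 (adjusted p 0.0273). The Ppp3ca call was lost without replicates 2, 3 or 4 (edgeR adjusted p of 0.0641, 0.146 and 0.0988), with library totals alone (0.0822), with limma on both TPM scales (0.183 and 0.181) and without the replicate block (0.0582). Of the R-spondin receptors and Rspo4, 2 were tested and 0 were called, at an unadjusted p of at most 0.05 also 0.

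Of 29 beta-catenin target genes tested, 7 fell and 1 rose, and this list shares Axin2, Lef1, Tcf7, Znrf3 and Rnf43 with the 48 genes, none of which was called. Ccnd1, which encodes cyclin D1, had 1342, 2145, 1602 and 1463 scaled counts in Control and 687, 508, 209 and 199.9 in OGTi, groups well apart, with a log2 change of -2.22 ± 0.34 (SE, edgeR adjusted p 0.00218). Trib2, a pseudokinase, fell by more, at -3.09 ± 0.35 (adjusted p 0.000503). The gap junction gene Gja1, the survivin gene Birc5 and the inhibitor of differentiation Id2 were at -1.82, -1.44 and -1.20 (adjusted p 0.00608, 0.00245 and 0.00409), and Fosl1, a subunit of AP-1, was higher at 1.12 ± 0.22 (adjusted p 0.00623). Without the replicate block Birc5 and Fosl1 were not called (edgeR adjusted p of 0.0666 and 0.104). Birc5 and Ccnd1 also act in the cell cycle, and Id2 is known to answer to BMP signals as well. Nkd2, a feedback inhibitor that binds Dishevelled, was named after its values were seen. It had 466, 339, 777 and 899 scaled counts in Control and 159, 216, 207 and 122 in OGTi, which did not overlap (log2 fold change -1.74 ± 0.35, edgeR adjusted p 0.00696). Its relative Nkd1, on the same list, was fitted above 0 and not called (log2 fold change 0.51 ± 0.47, edgeR adjusted p 0.506). Sp5, Lgr5, Notum and Dkk1 had under 10 counts in total and were not tested.

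**Figure D5:**
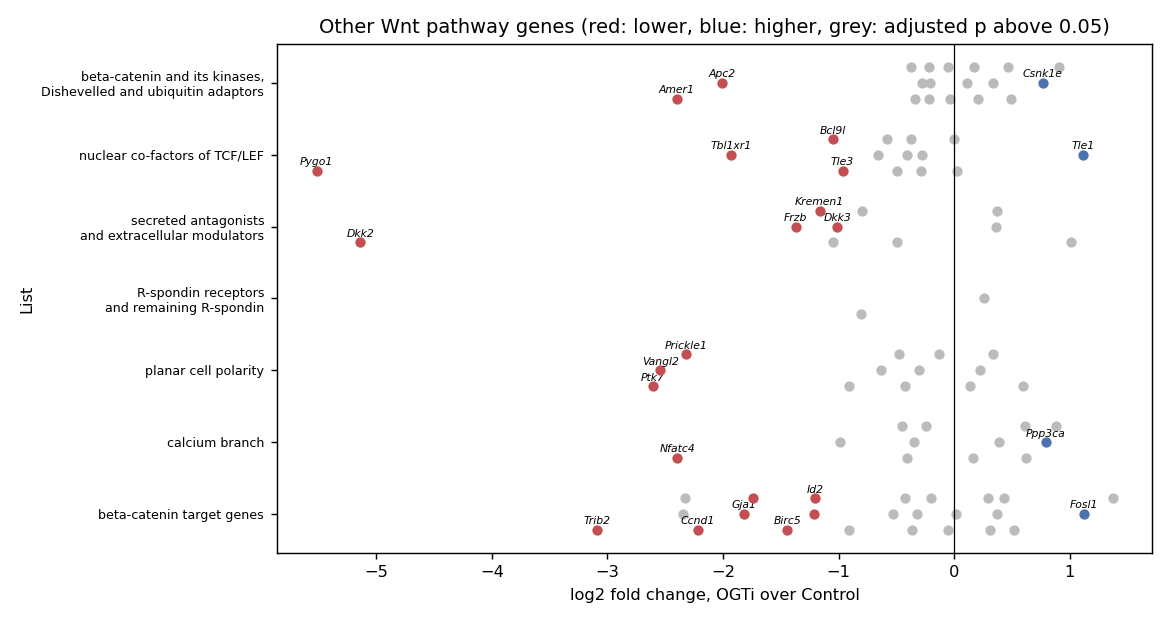
Log2 fold change of OGTi over Control for the tested pathway genes outside the 48, by list, with 1 point per gene (a gene on several lists is drawn in each), red where lower and blue where higher at an adjusted p of at most 0.05, and grey otherwise. Of the 92 genes, 21 are lower and 4 higher, with Pygo1 (-5.52) and Dkk2 (-5.14) farthest from 0.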

How the data were processed

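Polyadenylated RNA was sequenced by the authors as stranded libraries, and reads were placed on mm39 with Bowtie2 (version 2.3.5.1) and quantified per gene with RSEM (version 1.3.1), according to the labels and methods. The submitters' processing notes also name DESeq2 (version 1.36.0). A GENCODE annotation is named in the methods, but transcripts in the deposited tables carry RefSeq identifiers. The deposited tables give expected counts per gene, which need not be whole, TPM, and a mean transcript length (a value in bases, here a description only). The authors also deposited a whole-series table of whole-number counts, each equal to its expected count with the decimals dropped (100%), with normalized counts (a rounded score), fold changes and p-values from their comparison; it was not used for any result. No other column of per-sample values was left unused (0).

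After rounding of the expected counts, genes with a total of at least 10 over the 8 libraries were tested with edgeR 4.0.16 in R 4.3.3 (TMM scaling, glmQLFit and glmQLFTest, Benjamini-Hochberg adjustment over all 19963 genes, called at an adjusted p of at most 0.05). The replicate number was a block, because the study's methods pair the cultures of a replicate; deviations from the group means correlated at 0.160, 0.224, 0.105 and 0.318 between same-numbered libraries, and at -0.312 to 0.208 between others. Standard errors were derived from each log2 fold change and its F statistic (size over square root of F). A scaled count is a count brought to the mean effective library size, with TMM factors included. Levels of different genes were compared in TPM only. Pair directions used scaled counts plus 0.5. The libraries held 30068876 to 37372420 expected counts. How far counting error or the spread between cultures set the precision of each member was not tested. Reads lack molecular identifiers.

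Members were taken by symbol, and the genes named are the members called, the most abundant member of each role, the members of at least 1 TPM in either group, and up to 6 called genes of highest mean TPM per pathway list. The members and lists were chosen with earlier results of these data known. The summed level of 1 marker list is not reported here. RSEM was run with its strand-specific setting, which bears on Wnt1 and Wnt10b, since they overlap on opposite strands. Gene positions are from GENCODE vM39 (GRCm39), and promoters were read from a RefSeq table. The fit was tested on simulated data, where it recovered 24 of 100 genes changed by a log2 fold of 1 and 96 of 100 changed by 2. A member not called may therefore still have changed. Alternatives were no block, other scalings, DESeq2 1.42.0, other filters, limma 3.58.1 on log2(TPM + 1) and log2(TPM + 0.1), removal of the trend on length, leaving out each replicate, and an adjusted p of at most 0.01.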

Additional observations from a re-analysis of the deposited data

Results flagged for a closer look

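In 92 groups of 4 libraries, over the members and other pathway genes named, 3 held a library far from the other 3 by Dixon's test at the 95% level, where chance would give about 4.6. Rspo3 had 4527 scaled counts in Control replicate 3, against 2329 to 2561 in the other Control libraries. Ptk7, the polarity co-receptor, had 1727 in that same library, against 751.5 to 882.4 in the others. Pygo1 had 3.07 in OGTi replicate 1 and 0 in the other OGTi libraries, a difference of 3 reads. Without replicate 3 the log2 fold change of Rspo3 was -1.75, and its call stood.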

How the results depend on the processing

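Wnt5a, Wnt5b, Fzd6, Rspo3 and Tcf7l2 kept their call under all 13 alternatives, and none of the called genes named in the text as a member or pathway gene changed sign under any. Without the replicate block 8 members were lower (Fzd2 lost, at an adjusted p of 0.0575) and 0 higher, and 2991 genes were called in all, against 3666 with the block and its pairing. Among the other pathway genes named, Fosl1, Birc5, Ppp3ca and Dkk3 lost their call without the block (adjusted p of 0.104, 0.0666, 0.0582 and 0.102). Without the block 7.67% of all genes were lower, against 10.2% with it. Upper-quartile scaling lost Fzd2 and Fzd7 (7 lower, and 8.68% of all genes), library totals alone gained Znrf3 (10 lower, and 14.6%), log2(TPM + 1) lost Ror1 and gained Tcf7l1 (9 lower, and 17.3%), and log2(TPM + 0.1) lost Ror1 and gained Tcf7l1, Wls and Znrf3 (11 lower, and 17.4%). With the trend on length removed Fzd2, Fzd7 and Ror1 were lost (6 lower, and 9.89%). DESeq2 and that same fit each called 1 member higher, Axin1, where the fit reported called 0. At an adjusted p of at most 0.01, 5 members and 4.59% of all genes were lower. Leaving out 1 replicate gave 5 to 7 members lower (and 5.52% to 9.03% of all genes), 0 higher, and 3124, 3078, 1905 and 1956 genes called without replicates 1 to 4, with fewer libraries in each fit.

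The scaling moved the balance of directions. Higher genes were 54.2% of those called with upper-quartile scaling, 30.1% with library totals, and 25.7% and 26.3% on the TPM scales, and over all genes the median change (log2) was 0.13, -0.19, -0.10 and -0.23 in that order, against 0.01 as reported. Signs of members that were not called turned as follows, and the cause was not tested. Wnt9a ranged from -0.34 without replicate 4 to 1.00 without replicate 1. Porcn was at -0.15 with library totals, -0.20 and -0.32 on the TPM scales, and -0.19 and -0.09 without replicates 1 and 4 (up to 0.29 without replicate 3). Lrp6 was at 0.048 with upper-quartile scaling, 0.10 with the length trend removed, and 0.046 and 0.0021 without replicates 1 and 3 (down to -0.20 without replicate 2). Ryk was at 0.11 with upper-quartile scaling, 0.030 with DESeq2, 0.020 with edgeR's own filter, 0.16 with the length trend removed, and 0.16 and 0.11 without replicates 2 and 3 (down to -0.18 without replicate 1). Apc was at -0.0052 with library totals and -0.10 and -0.15 on the TPM scales. With the length trend removed Wls was at 0.042 and Tcf7l1 at 0.15. Depth limited members of few reads, such as Axin2 and Lef1.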
